A study of Mus musculus with 12 samples.

Results

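Among the 56748 genes listed for this study of rod Shp2 knockout (KO) mice, 8 belong to the core machinery of cell death, and all were found by symbol. Bax and Bak1 form the pores that open the outer mitochondrial membrane. Bcl2 and Bcl2l1, which encodes BCL-xL, hold those pores shut, and Bbc3, which encodes PUMA, is a p53-induced BH3-only protein that releases this hold. Casp9 encodes the initiator caspase of the apoptosome, Ripk1 the kinase that relays death receptor signals toward survival, apoptosis or necroptosis, and Parp1 the nuclear enzyme that marks damaged DNA with poly(ADP-ribose) and whose overactivity is linked to caspase-independent death.

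Photoreceptors are postmitotic and are not replaced in mammals, so a rod that dies is lost for good. Release of cytochrome c through Bax and Bak1 pores leads to apoptosome assembly and caspase activation, whereas excess poly(ADP-ribose) can drive AIF from mitochondria to the nucleus without caspases. Both routes, together with calpain and cGMP-dependent kinase activity, have been described in degenerating rods.

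RNA was sequenced from retinas of 2-week-old littermates as 12 libraries, 3 for each of 4 groups. Het mice (RiboTag;Shp2fl/+;i75-Rod-Cre) served as controls and KO mice (RiboTag;Shp2fl/fl;i75-Rod-Cre) lacked both floxed alleles of Shp2, which Ptpn11 encodes, wherever Cre acted. Cre ran from a rhodopsin promoter, so it was confined by design to rods, and every mouse carried Cre and the RiboTag allele that places HA on the ribosomal protein Rpl22. The Het rods had therefore lost an Shp2 allele themselves, and no library analysed here came from Cre-negative or Shp2 wild-type mice, although the sample titles call the controls wt. Rod libraries held polyA RNA bound to HA-tagged ribosomes (translating ribosome affinity purification, TRAP), and retina libraries held RNA of the whole lysate before the pull-down. Nothing ties the 3 libraries of a group to 3 separate mice, so the p-values measure the spread between these libraries only.

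The deposited values were inferred to be read counts multiplied by a factor per library and rounded, since the 6 libraries of a fraction have nearly the same total, 14525527 to 14527992 in retina and 16263948 to 16265259 in rods. The reads behind them were estimated here at 10000000 to 19200000 per retina library, with no estimate for Het retina replicate 3, and at 11900000 to 25300000 per rod library. The floor of detection, taken as 3 reads, was 1.6e-05% to 3e-05% of the library in retina and 1.2e-05% to 2.5e-05% in rods, which covers counting error only. All 8 rod markers were higher in Het rods than in Het retina, and their summed level was 144000 to 160000 CPM (value per 1000000 of the library total) against 46400 to 58700. The 6 microglial markers summed to 0.0615 to 0.676 CPM in Het rods against 20.2 to 37.4 in Het retina, the 5 Muller glia markers to 72.2 to 106 against 2450 to 3260, and the 5 bipolar markers to 243 to 328 against 911 to 993. The 5 cone markers were depleted less and summed to 239 to 394 CPM in Het rods against 792 to 954 in Het retina. The median log2 fold change of the cone list was -1.11, against -4.41 for the microglial, -4.91 for the Muller glia and -5.20 for the bipolar list. Ptpn11 was at 2370 ± 30.3 in Het rods and 2020 ± 227 in KO rods (scaled value, SD, n = 3), a log2 fold change of -0.23 with a standard error (SE) of 0.09 and an adjusted p of 0.078 from limma, so the loss of the targeted gene did not pass the test in this table of 1 value per gene.

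Levels of different genes were compared per kilobase of the longest coding transcript. Parp1 and Bcl2l1 were the most abundant members in every group, and their order differed between the fractions. In Het rods Parp1 stood at 16.7 ± 1.11 CPM per kilobase and Bcl2l1 at 12.4 ± 2.15, whereas in Het retina Bcl2l1 stood at 23.8 ± 6.09 and Parp1 at 14.6 ± 3.74 (SD, n = 3). Parp1 exceeded Bcl2l1 in 6 of 6 rod libraries, and Bcl2l1 exceeded Parp1 in 6 of 6 retina libraries.

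Below them in Het rods came Casp9 (5.52 ± 0.408), Bax (3.07 ± 1.12), Bcl2 (2.33 ± 0.252), Bak1 (1.04 ± 0.243), Ripk1 (0.621 ± 0.0334) and Bbc3 (0.0113 ± 0.0196 CPM per kilobase). In this order only Bax and Bcl2 overlapped as neighbours. In KO rods Bax, at 5.87 ± 1.19, took the place above Casp9, at 5.66 ± 0.111 CPM per kilobase, and the libraries of the 2 genes overlapped. In Het retina Bax was at 8.30 ± 5.84, Casp9 at 7.45 ± 0.555, Bcl2 at 3.59 ± 0.153, Bak1 at 2.33 ± 0.536, Ripk1 at 1.68 ± 0.509 and Bbc3 at 0.215 ± 0.179 CPM per kilobase. There the overlapping neighbours were Bcl2l1 with Parp1, Parp1 with Bax, Bax with Casp9, and Bak1 with Ripk1. KO retina kept this order of genes, from Bcl2l1 at 23.0 ± 4.54 and Parp1 at 14.1 ± 1.47 down to Ripk1 at 1.60 ± 0.181 and Bbc3 at 0.304 ± 0.165 CPM per kilobase.

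**Figure D1:**
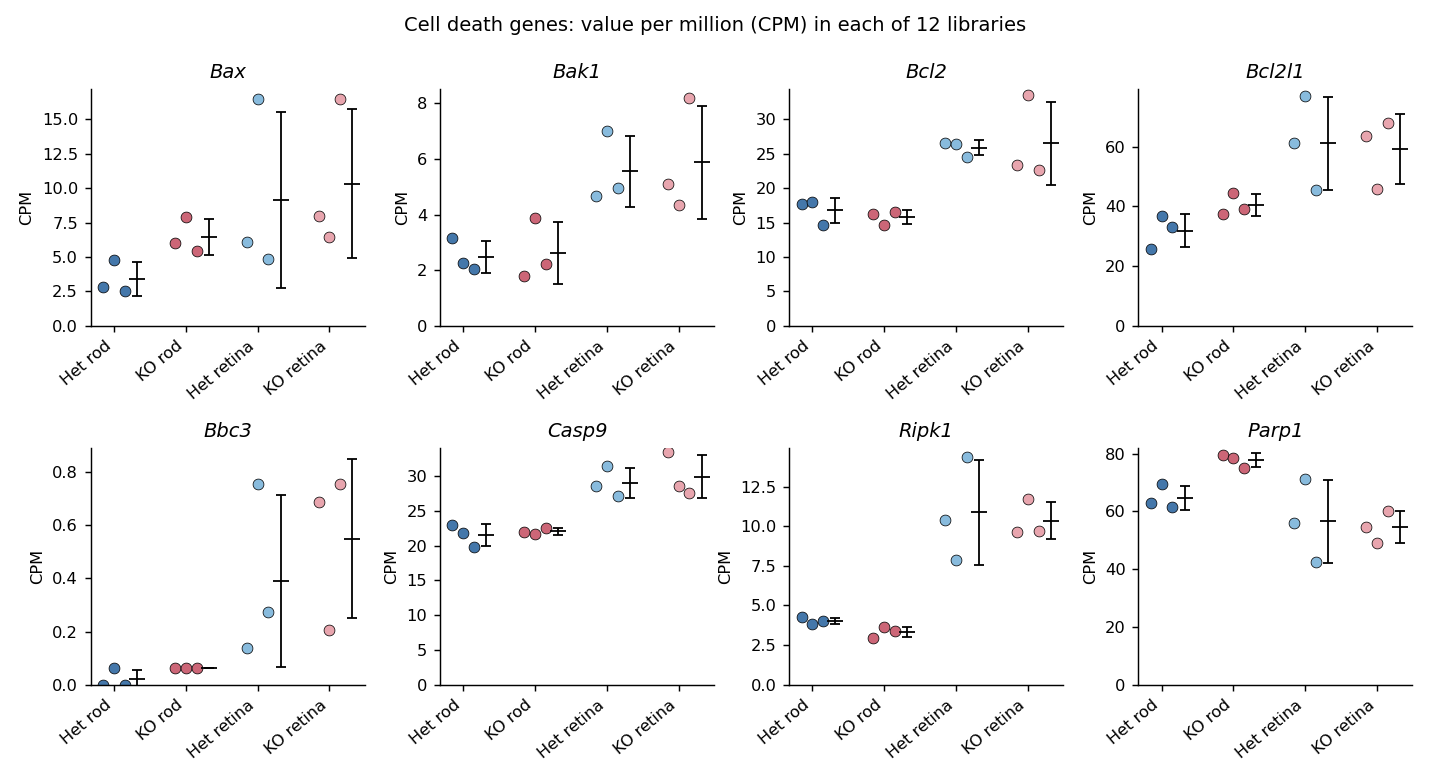
Level of each of the 8 cell death genes in the 12 libraries, in CPM on linear axes that start at 0, with a panel per gene and 3 points per group. Bars give the group mean and SD. Bax is higher in the 3 KO rod libraries (5.41 to 7.93 CPM) than in the 3 Het rod libraries (2.52 to 4.80 CPM), and Bbc3 stays at or below 0.0615 CPM in rods.

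The 5′ ends of the 3 members that changed in at least 1 comparison, Bax, Ripk1 and Parp1, are given to show the start regions of the genes whose levels differ below. The GC content discussed with the KO comparison is that of transcripts, not of these windows. All 8 members had entries in the RefSeq promoter set of build GRCm38.p6, 13 in all, each 300 bases around an annotated start. The GC box GGGCGG, a binding sequence of Sp1-family factors searched on both strands (overlapping matches included), is in capitals. It occurred in 9 of the 13 entries, from 6 of the 8 members (all but Bak1 and Bcl2l1), and in 35.7% of the 32851 promoters of the set. CCAAT occurred in 1 entry, of Bbc3, and in 37.4% of all promoters, and TATAAA in 0 entries and in 13.6% of all promoters. The GC content of the 13 entries ran from 49.3% to 78.0%, against a median of 52.7% for all promoters. Only entries of Bcl2l1, at 49.3% and 52.3%, lay below that median. These matches describe the letters of the window and not binding.
Bax, chr7:45466849-45467148, minus strand: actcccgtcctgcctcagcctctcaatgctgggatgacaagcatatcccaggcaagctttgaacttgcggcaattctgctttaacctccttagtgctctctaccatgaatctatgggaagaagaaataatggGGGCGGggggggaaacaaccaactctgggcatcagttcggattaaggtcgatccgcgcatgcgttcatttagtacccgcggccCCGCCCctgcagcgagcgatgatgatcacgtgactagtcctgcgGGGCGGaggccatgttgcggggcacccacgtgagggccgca
Ripk1, upstream start, chr13:34002113-34002412, plus strand: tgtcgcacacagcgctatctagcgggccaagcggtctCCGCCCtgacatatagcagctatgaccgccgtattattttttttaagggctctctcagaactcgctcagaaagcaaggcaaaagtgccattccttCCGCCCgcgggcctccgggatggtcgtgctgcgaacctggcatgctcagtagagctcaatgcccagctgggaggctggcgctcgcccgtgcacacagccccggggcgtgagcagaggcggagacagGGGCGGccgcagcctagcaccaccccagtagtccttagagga
Ripk1, downstream start, chr13:34002624-34002923, plus strand: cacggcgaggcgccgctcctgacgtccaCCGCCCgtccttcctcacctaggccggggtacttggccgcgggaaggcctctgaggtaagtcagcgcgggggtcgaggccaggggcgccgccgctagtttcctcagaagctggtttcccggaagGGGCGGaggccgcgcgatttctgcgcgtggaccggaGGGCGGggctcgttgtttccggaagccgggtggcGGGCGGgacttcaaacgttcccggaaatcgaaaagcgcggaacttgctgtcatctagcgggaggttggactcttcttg
Parp1, chr1:180568641-180568940, plus strand: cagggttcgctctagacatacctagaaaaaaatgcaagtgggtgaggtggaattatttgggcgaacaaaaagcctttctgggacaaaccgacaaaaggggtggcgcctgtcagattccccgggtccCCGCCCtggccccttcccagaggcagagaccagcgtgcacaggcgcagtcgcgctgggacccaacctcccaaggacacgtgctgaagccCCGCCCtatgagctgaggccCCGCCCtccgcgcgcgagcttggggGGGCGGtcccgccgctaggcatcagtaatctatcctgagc

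Rod TRAP was first compared with whole retina within each genotype, which asks how the members stand on rod ribosomes against the tissue around them. Fold changes are on the scale of log2(value + 2) after TMM scaling, which understates the change of low genes, and to count as changed a gene needed an adjusted p under 0.05 (limma, Benjamini-Hochberg over all genes tested) together with a log2 fold change beyond 0.5. In bulk RNA, fewer cells of a type and less RNA per cell cannot be told apart. Parp1 was higher and Ripk1 lower in rods than in retina in both genotypes, and no other member changed. In Het mice that is 1 of 7 members tested higher, where 22.7% of all 16110 genes were, and 1 lower, where 36.4% of all genes were. In KO mice the same counts stood against 26.9% and 36.1% of 16121 genes. The median log2 fold change of the tested members was -0.48 in the Het comparison and -0.01 in the KO comparison, against -0.08 and 0.01 over all genes.

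Parp1 had deposited values of 1023, 1132 and 1001 in Het rods and of 812, 1037 and 617 in Het retina. Het retina replicate 2 was the highest of its group and came within the range of the rod values before scaling, but not after it. The scaled means were 1160 ± 91.2 and 749 ± 208 (SD, n = 3), a log2 fold change of 0.66 (SE 0.19, adjusted p = 0.016, limma). In KO mice Parp1 had 1296, 1279 and 1219 in rods and 793, 710 and 876 in retina. These groups did not overlap, and the log2 fold change was 1.08 (SE 0.13, adjusted p = 9.0e-05, limma). The difference between the genotypes in this contrast, 0.42 (95% interval -0.11 to 0.95, adjusted p = 0.89, limma interaction), did not pass the test.

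Ripk1 had 69, 62 and 65 in Het rods and 151, 114 and 209 in Het retina. Every rod library lay below every retina library, with a log2 fold change of -0.93 (SE 0.25, adjusted p = 0.0099, limma). In KO mice Ripk1 had 48, 59 and 55 in rods and 140, 170 and 141 in retina, again without overlap, and a log2 fold change of -1.05 (SE 0.20, adjusted p = 0.0015, limma). Without Het retina replicate 1 or 3 the Het call was lost (adjusted p = 0.061 and 0.057, limma). Without Het rod replicate 2 the Het call of Parp1 was lost (adjusted p = 0.063, limma).

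Neither pore-forming member passed the test in the main fits, which used TMM scaling, every library of the groups compared and no further adjustment. Both calls depended on the setting. Bax had 46, 78 and 41 in Het rods and 88, 240 and 70 in Het retina, where replicate 2 stood far above the others. Its log2 fold change was -0.81 (SE 0.48, adjusted p = 0.17, limma) in Het mice. In KO mice it was -0.01 (SE 0.36, adjusted p = 0.98, limma). Het libraries with the same number deviated together, and with the replicate number as a block Bax passed the test at the same fold change (SE 0.25, adjusted p = 0.020, limma). With totals alone in place of TMM it also passed in Het mice, at -1.24 (adjusted p = 0.042, limma). After each library's GC trend was removed, the sign of the Bax value turned in both genotypes, to 0.21 (adjusted p = 0.48) and 0.32 (adjusted p = 0.11, limma).

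Bak1 had 51, 37 and 33 in Het rods and 68, 102 and 72 in Het retina. These groups did not overlap, yet the log2 fold change of -0.70 (SE 0.28, adjusted p = 0.056, limma) missed the threshold. It passed without Het rod replicate 1, at -0.86 (adjusted p = 0.045), and with totals alone, at -1.12 (adjusted p = 0.0060, limma). In KO mice Bak1 had 29, 63 and 36 in rods and 74, 63 and 119 in retina, and the groups met at 63 before scaling. There it passed with totals alone, at -1.15 (adjusted p = 0.016), and with the GC trend removed, at -0.67 (adjusted p = 0.048, limma). Groups free of overlap were found for 3 of 7 members in Het mice and 2 of 7 in KO mice, against 68.9% and 73.0% of all genes.

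The anti-apoptotic members and Casp9 did not pass the test in the main fits either. Bcl2 had 288, 292 and 239 in Het rods and 386, 383 and 357 in Het retina, with a log2 fold change of -0.18 (95% interval -0.52 to 0.16). Bcl2l1 had 419, 595 and 538 in Het rods and 888, 1116 and 662 in Het retina, with a log2 fold change of -0.48 (SE 0.22, adjusted p = 0.090, limma). Both were lower in every Het rod library before scaling, and TMM scaling brought the groups into overlap. Casp9 had 373, 355 and 322 in Het rods and 416, 456 and 394 in Het retina, with a log2 fold change of 0.01 (95% interval -0.32 to 0.34). The choice of scaling mattered here. With totals alone in place of TMM, the median of all genes moved to -0.51 (Het) and -0.55 (KO), 13.6% and 12.7% of changed genes were higher in rods in place of 38.4% and 42.8%, and 5 members counted as changed in each genotype. Under that scaling Casp9 turned to -0.43 in both genotypes, and Parp1 in Het mice fell short at 0.22 (adjusted p = 0.34, limma).

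Bbc3 was near 0 in rods. It had 0, 1 and 0 in Het rods, against 1, 1 and 1 in KO rods, so it was not tested in any comparison of rods with retina or of KO with Het rods. Het retina gave 2, 11 and 4 and KO retina 10, 3 and 11. All retina libraries were thus above all rod libraries, at levels where a few reads set the value.

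**Figure D2:**
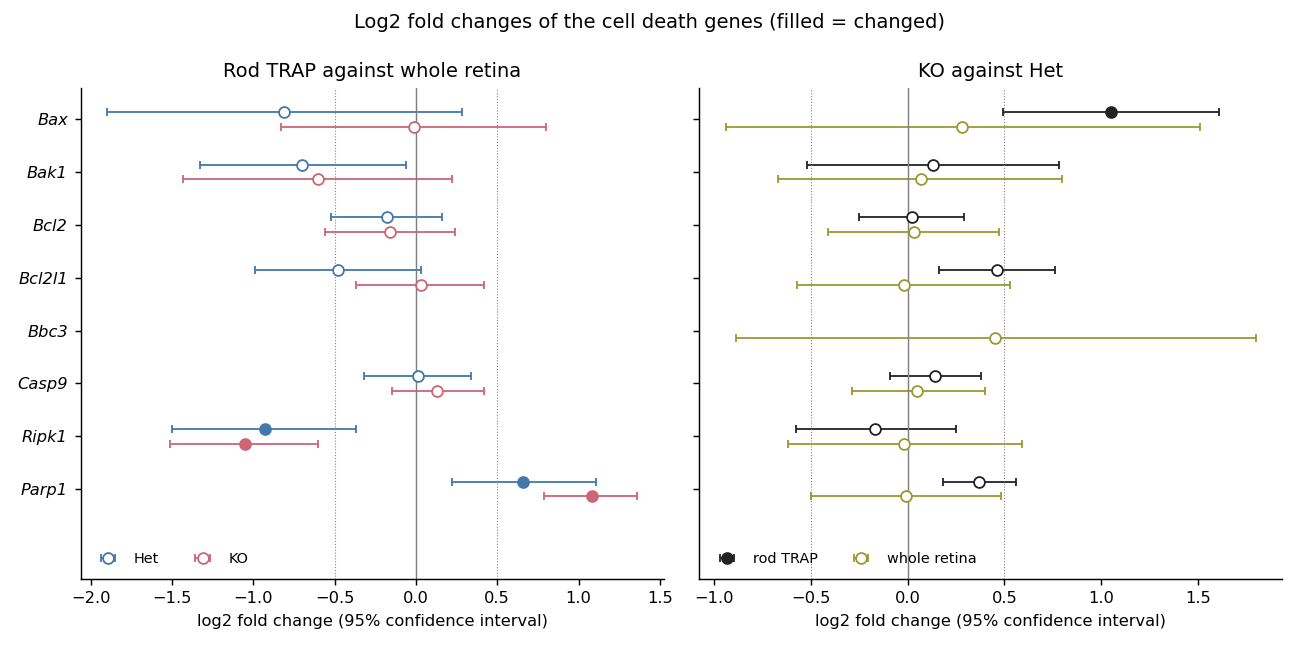
Log2 fold change of each member with its 95% confidence interval (limma), rods against retina in each genotype on the left and KO against Het in each fraction on the right. Filled points are changed genes, and dotted lines mark 0.5 in either direction. Parp1 (0.66 and 1.08) and Ripk1 (-0.93 and -1.05) stand out on the left in both genotypes, and Bax in rods (1.05, or 0.16 with the GC trend removed) on the right.

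KO rods were then compared with Het rods, the contrast that addresses the effect of Shp2 loss on the rod translatome. Bax was the 1 member of 7 tested that rose, where 12.1% of all 13055 genes rose, and 0 members fell, where 1.55% of all genes did. It had 46, 78 and 41 in Het rods, against 98, 129 and 88 in KO rods, so the lowest KO library was above the highest Het library. The scaled means were 53.1 ± 19.8 and 109 ± 24.3 (SD, n = 3), a fold of 2.07 and a log2 fold change of 1.05 (95% interval 0.49 to 1.61, SE 0.26, adjusted p = 0.013, limma). The call was lost without Het rod replicate 1 (adjusted p = 0.063) or replicate 3 (adjusted p = 0.054, limma), and the fold change stayed between 0.85 and 1.30 whichever library was left out. It was also lost when the GC trend of the libraries, described below, was removed. The Het rod libraries are the same as in the comparison with retina.

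Bcl2l1 and Parp1 had adjusted p-values below 0.05 and changes under the size limit. Bcl2l1 had 419, 595 and 538 in Het rods, against 609, 722 and 638 in KO rods, with a log2 fold change of 0.46 (95% interval 0.16 to 0.76, adjusted p = 0.029, limma). Parp1 had 1023, 1132 and 1001 in Het rods, against 1296, 1279 and 1219 in KO rods, with a log2 fold change of 0.37 (95% interval 0.18 to 0.56, adjusted p = 0.011, limma). In both genes the KO libraries were all above the Het libraries. Without Het rod replicate 2, Bcl2l1 passed the size limit and 2 members counted as changed, and without Het rod replicate 1 or 3 there were 0.

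Bak1, Bcl2, Casp9 and Ripk1 did not pass the test. Casp9, with 373, 355 and 322 in Het rods, against 358, 352 and 366 in KO rods, overlapped before scaling and not after it, at a log2 fold change of 0.14 (adjusted p = 0.35, limma). Bcl2 had 288, 292 and 239 in Het rods, against 263, 238 and 268 in KO rods, a log2 fold change of 0.02 (95% interval -0.25 to 0.29) that turned to -0.09 with totals alone and to -0.01 with median-ratio factors. Ripk1 stood at -0.17 (95% interval -0.58 to 0.25) and Bak1 at 0.13 (95% interval -0.52 to 0.78). Groups free of overlap were found for 4 of the 7 members (Bax, Bcl2l1, Parp1 and Casp9), against 43.5% of all genes. The median of the members was 0.14, against 0.01 over all genes.

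The balance between Bax and its inhibitors was read within each library as a log2 ratio. The Bax to Bcl2 ratio was -2.59, -1.88 and -2.49 in Het rods, against -1.41, -0.87 and -1.58 in KO rods. The groups did not overlap, and the means were -2.32 ± 0.39 and -1.29 ± 0.37 (SD, n = 3), a difference of 1.03 with an exact two-sided permutation p of 0.10, the smallest that 3 libraries against 3 allow. The Bax to Bcl2l1 ratio was -3.13, -2.90 and -3.65 in Het rods, against -2.61, -2.47 and -2.83 in KO rods, a difference of 0.59 at the same exact p of 0.10. In Het retina the Bax to Bcl2 ratio ran from -2.32 to -0.67, and in KO retina from -2.35 to -0.46.

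The genotype groups also differed in how their values varied with transcript GC content, and Bax has GC-rich transcripts. The GC trend of a library, taken as the median deviation of the tenth of genes richest in GC minus that of the poorest, was -0.81, -0.23 and -0.42 in Het rods, against 0.42, 0.76 and 0.28 in KO rods (log2). Over all genes the median KO against Het change climbed from -0.25 in the lowest GC decile to 0.71 in the highest. Bax, at 63.5% GC, lies in the highest decile. Bcl2l1 (55.9%) and Bak1 (57.1%) lie in decile 9, with a median of 0.47, and Parp1 (52.7%) in decile 7, with a median of 0.15.

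Of the 5 Muller glia markers 1 rose in KO rods, Apoe, by 1.06 on the log2 scale (SE 0.25, adjusted p = 0.011, limma). Of the 5 amacrine markers 1 rose, Slc6a9, by 0.75 (SE 0.14, adjusted p = 0.0042, limma). Over all genes tested 12.1% rose. No value with the GC trend removed is given for Apoe or Slc6a9. In whole retina both were highest in Het replicate 2 (4519 and 1403) and KO replicate 3 (7550 and 1393). These libraries had the highest GC trends of their fraction (0.86 and 0.90). The median log2 fold change was 0.19 for the Muller list and -0.01 for the amacrine list, against 0.01 over all genes. The summed Muller markers were at 72.2 to 106 CPM in Het and 68.6 to 105 CPM in KO rods, the amacrine markers at 31.5 to 34.4 and 37.7 to 48.5 CPM, and the rod markers at 144000 to 160000 and 157000 to 168000 CPM. The amacrine sums did not overlap between the genotypes. Slc6a9 was their largest term in every rod library, while Gad1, Gad2 and Tfap2b overlapped between the genotypes. Pax6 had 108, 106 and 116 in Het rods, against 148, 106 and 136 in KO rods. The part of these markers in the Bax result was not tested.

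Removing each library's GC trend left 0 members changed and 453 genes changed in place of 1781, of which 77.7% rose in place of 88.7%. With totals alone in place of TMM, and the GC trend kept, 67.3% of changed genes rose. With the GC trend removed the Bax change was 0.16 (SE 0.20, adjusted p = 0.65, limma), that of Bcl2l1 0.11 (adjusted p = 0.49) and that of Parp1 0.29 (adjusted p = 0.028, limma), while Bak1 turned to -0.32 and Ripk1 to 0.09. The Bax to Bcl2 difference was -0.09 and the Bax to Bcl2l1 difference 0.05 in the same setting. As the groups differ in this trend without overlap, genotype and GC trend cannot be told apart in these rod libraries.

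In whole retina the libraries with high GC trends came from both genotypes. Bax was at 240 in Het retina replicate 2 and at 240 in KO retina replicate 3, the libraries with the highest GC trends of their fraction (0.86 and 0.90). It was at 70 in Het retina replicate 3, which had the lowest trend (-0.84), and at 88, 94 and 116 in the remaining libraries, with trends of -0.24, -0.63 and 0.01.

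**Figure D3:**
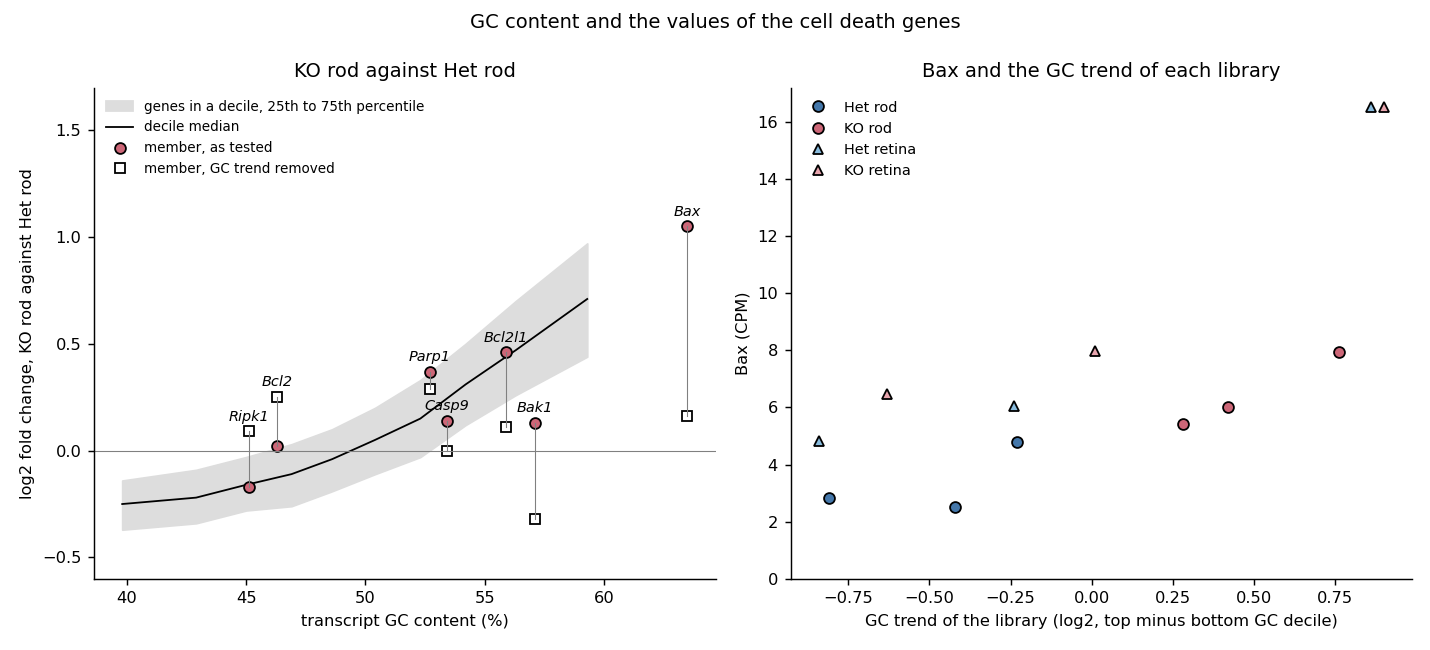
Left, log2 fold change between KO and Het rods against transcript GC content, with the median and the middle range of genes per GC decile and the 7 tested members before (circles) and after (squares) removal of the GC trend. Right, Bax in CPM against the GC trend of each of the 12 libraries. Bax moves from 1.05 to 0.16, and its highest retina values are in the libraries with trends of 0.86 and 0.90.

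In whole retina no member changed between KO and Het mice, and limma called 0 of 16863 genes (0%), with 140 genes at an unadjusted p below 0.05. The 8 members all passed the filter here, and 0 of them had groups free of overlap, against 3.50% of all genes. Bax had 88, 240 and 70 in Het and 116, 94 and 240 in KO retina, a log2 fold change of 0.28 with a wide 95% interval of -0.94 to 1.51. Parp1, at 812, 1037 and 617 in Het and 793, 710 and 876 in KO retina, had -0.01 (95% interval -0.50 to 0.48). Bbc3, the lowest member, had 0.45 (SE 0.58). The remaining members lay between -0.02 and 0.07.

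The difference between the KO effect in rods and that in retina was fitted over the 12 libraries, and 0 of 17192 genes passed (0%), with 517 at an unadjusted p below 0.05. The values of Bax (0.80, 95% interval -0.64 to 2.24), Bcl2l1 (0.52, 95% interval -0.15 to 1.18) and Parp1 (0.42, 95% interval -0.11 to 0.95) each had an adjusted p of 0.89 from limma. So the rise of Bax in KO rods was not shown to differ from its change in retina.

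Around the members, 65 other genes of 10 cell death lists were examined. Of the 50 tested in Het rods against Het retina, 11 were below a value of 10 in at least 1 Het rod library. The 10 of these that were lower in rods passed the filter on low values through retina, where they are high, so their direction follows from how they were kept. Of the 39 others 8 were higher and 7 lower in rods, against 22.7% and 36.4% of all genes tested, a background that holds genes kept through 1 fraction too. In KO mice 10 of 51 were kept through retina in the same way, and of the 41 others 12 were higher and 9 lower, against 26.9% and 36.1%. The 12 include Endog, which was below 10 in some KO retina libraries and was kept mainly through rods. Between KO and Het rods 3 of 41 rose, where 12.1% of all genes did, and 0 fell, where 1.55% did. Between KO and Het retina 0 of 51 changed, as for all genes. None of these counts was read as particular to the lists.

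The 8 poly(ADP-ribose) and AIF genes, the list that holds Parp1, had a median of 0.47 in Het mice, against -0.08 over all genes. In Het rods 0 of the 8 were lower than in Het retina, against 36.4% of all genes, and 4 were higher, against 22.7%. Besides Parp1 these were Parg, which removes poly(ADP-ribose), at 0.85 (SE 0.16, adjusted p = 0.0016), Aifm1, which encodes AIF, at 0.65 (SE 0.12, adjusted p = 0.0017), and Rnf146, a ubiquitin ligase that binds poly(ADP-ribose), at 0.59 (SE 0.14, adjusted p = 0.0052, limma). With totals alone these values were 0.41, 0.21 and 0.15 and none of the 3 passed, and with the GC trend removed Rnf146 did not (0.31, adjusted p = 0.055, limma). In KO mice 3 of 8 were higher, against 26.9% of all genes. They were Parp1, Parg at 0.64 and Xrcc1, a scaffold of DNA single-strand break repair, at 1.01 (adjusted p = 0.0079, limma). With totals alone Parg was at 0.08 (adjusted p = 0.73) and Xrcc1 at 0.45 (adjusted p = 0.14, limma), and neither passed. Parg also lost its call without KO retina replicate 1 (0.57, adjusted p = 0.052) or replicate 3 (0.47, adjusted p = 0.016, limma, under the size limit).

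Of the death receptor and necroptosis genes, the list that holds Ripk1, 6 of 9 tested had a value of 10 or more in every Het rod library. Of these Ripk1 alone was lower and 0 were higher, against 36.4% and 22.7% of all genes. The other 3 were kept in the test through retina, so their lower level in rods is given as values only. Tnfrsf1a, the main TNF receptor, had 0, 2 and 0 in Het rods and 93, 141 and 113 in Het retina. Its adaptor Tradd had 1, 2 and 1 against 20, 37 and 24, and Casp8, the initiator caspase of death receptors, 0, 1 and 0 against 25, 11 and 37. These are values of 0 to 2 in Het rods, where Ripk1 had 62 to 69. Fas was at 0 in all 3 Het rod libraries and at 4, 36 and 36 in Het retina, while the necroptosis kinase Ripk3 and its substrate Mlkl were at 0 in all 6 rod libraries and at most at 3 and 4 in retina.

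Of the apoptosome, caspases and their inhibitors, where Casp9 belongs, 3 of 11 tested genes were higher in Het rods and 2 lower. Over all genes these shares were 22.7% and 36.4%. Xiap, an inhibitor of caspases, had 22908, 20427 and 19598 in Het rods and 11662, 8297 and 12445 in Het retina, a log2 fold change of 1.26 (SE 0.15, adjusted p = 1.2e-04, limma). Apaf1, the scaffold that Casp9 binds, was at 0.86 (SE 0.16, adjusted p = 0.0019, limma), a call lost with totals alone (0.42, adjusted p = 0.068, limma). Cycs, cytochrome c, was the third to be higher. Diablo, an antagonist of Xiap, was lower in Het rods, with 63, 52 and 60 against 132, 109 and 127 in Het retina, a log2 fold change of -0.77 (SE 0.20, adjusted p = 0.0084, limma). In KO mice Diablo did not pass, at -0.55 (SE 0.25, adjusted p = 0.080, limma).

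Within the BCL2 family, 0 of 4 tested anti-apoptotic genes changed between Het rods and Het retina. Over all genes 22.7% were higher in Het rods and 36.4% lower. Bok, the third pore-forming gene, was lower in rods at -1.19 (SE 0.36, adjusted p = 0.019, limma). This Het call was lost with the GC trend removed (-0.43, adjusted p = 0.16, limma). It was also lost without any of Het rod replicates 1 and 2 and Het retina replicates 1 and 2 (adjusted p = 0.051 to 0.067, limma). In KO mice Bok was lower at -1.13 (SE 0.23, adjusted p = 0.0025, limma). That call held whichever library was left out, at -1.19 to -1.05. Of the 3 BH3-only genes with a value of 10 or more in every Het rod library, Bcl2l11, which encodes BIM, was higher at 0.52 (SE 0.14, adjusted p = 0.0096, limma) and 0 were lower. Bcl2l11 was at 0.08 with totals alone (adjusted p = 0.66), at 0.38 with the GC trend removed, under the size limit, and at 0.49 without Het rod replicate 2 (adjusted p = 0.051, limma). The 2 other tested genes were kept through retina. Bid, which links death receptors to mitochondria, had 0, 2 and 1 in Het rods and 43, 61 and 59 in Het retina, and Hrk had 0, 0 and 0 against 17, 12 and 12.

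The p53 list had 1 gene higher and 2 lower of 7 in Het rods, against 22.7% and 36.4% of all genes. Mdm2, the ubiquitin ligase of p53, was higher at 0.69 (SE 0.13, adjusted p = 0.0017), and its partner Mdm4 and Trp53 itself were lower at -1.20 (SE 0.17, adjusted p = 3.2e-04) and -0.69 (SE 0.21, adjusted p = 0.019, limma). Mdm2 was at 0.24 with totals alone (adjusted p = 0.18, limma) and at 0.49, under the size limit, with the GC trend removed. Trp53 lost its call without any of Het rod replicates 1 and 3 and Het retina replicates 1 and 2 (adjusted p = 0.054 to 0.072, limma).

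Of the 6 calpain and cGMP-dependent kinase genes, 5 were below 10 in at least 1 Het rod library and were kept through retina, so no count or median is given for them. Capns1, the shared small subunit of the main calpains, had 277, 414 and 338 in Het rods and 1485, 1829 and 1530 in Het retina, a log2 fold change of -1.96 (SE 0.18, adjusted p = 2.9e-05, limma). Prkg1 had 8, 10 and 12 in Het rods and 329, 332 and 668 in Het retina, and Capn2 had 5, 11 and 13 against 310, 408 and 465. The calpain inhibitor Cast had 8, 4 and 9 against 240, 169 and 317. Gsdme, which encodes a pore-forming gasdermin, was the 1 tested pyroptosis gene and was lower at -2.52 (SE 0.22, adjusted p = 1.9e-05, limma). None of the 3 genes on the apoptotic nuclease list changed in Het mice. In KO mice Dffa, the inhibitor of the caspase-activated nuclease, was higher at 0.54 (adjusted p = 0.0024, limma). Dffa fell under the size limit with median-ratio factors (0.49) and with the GC trend removed (0.44), and was at -0.02 with totals alone. Endog also counted as changed in KO mice, with 18, 21 and 12 in KO rods and 9, 5 and 12 in KO retina. It was kept in the test mainly through rods, where it is high, so its direction follows in part from how it was kept. It lost its call with totals alone (0.72, adjusted p = 0.12) and in 4 of the 6 fits without 1 library, those without KO rod replicate 1 or 2 or KO retina replicate 1 or 2 (adjusted p = 0.052 to 0.080, limma).

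Between KO and Het rods the 3 other genes that rose were Traf2, Mif and Xrcc1. Mif, a cytokine that also acts as a nuclease partner of AIF, had 155, 227 and 212 in Het rods, against 535, 754 and 417 in KO rods, a log2 fold change of 1.60 (SE 0.24, adjusted p = 0.0046, limma). Mif has near-identical processed pseudogenes in the mouse, so reads could be split or shared among them. Xrcc1 had 183, 289 and 237 in Het rods, against 418, 436 and 361 in KO rods, at 0.90 (SE 0.17, adjusted p = 0.0045, limma), and Traf2, an adaptor of TNF receptors, 181, 257 and 224 against 323, 343 and 267, at 0.60 (SE 0.16, adjusted p = 0.018, limma). With the GC trend removed Mif stayed called at 0.94 (adjusted p = 0.0023), while Xrcc1 at 0.28 (adjusted p = 0.12) and Traf2 at 0.35 (adjusted p = 0.093, limma) did not. In whole retina Mif had 328, 965 and 203 in Het and 428, 243 and 1139 in KO libraries. Its highest values there, as for Bax, were in the libraries with the highest GC trends (0.86 and 0.90). Whether the removal took out all of this dependence for Mif was not tested. Traf2 also lost its call without any of Het rod replicates 1 and 3 and KO rod replicates 1 and 2 (adjusted p = 0.051 to 0.072) and stood at 0.50 with totals alone (adjusted p = 0.026, limma), short of the size limit.

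**Figure D4:**
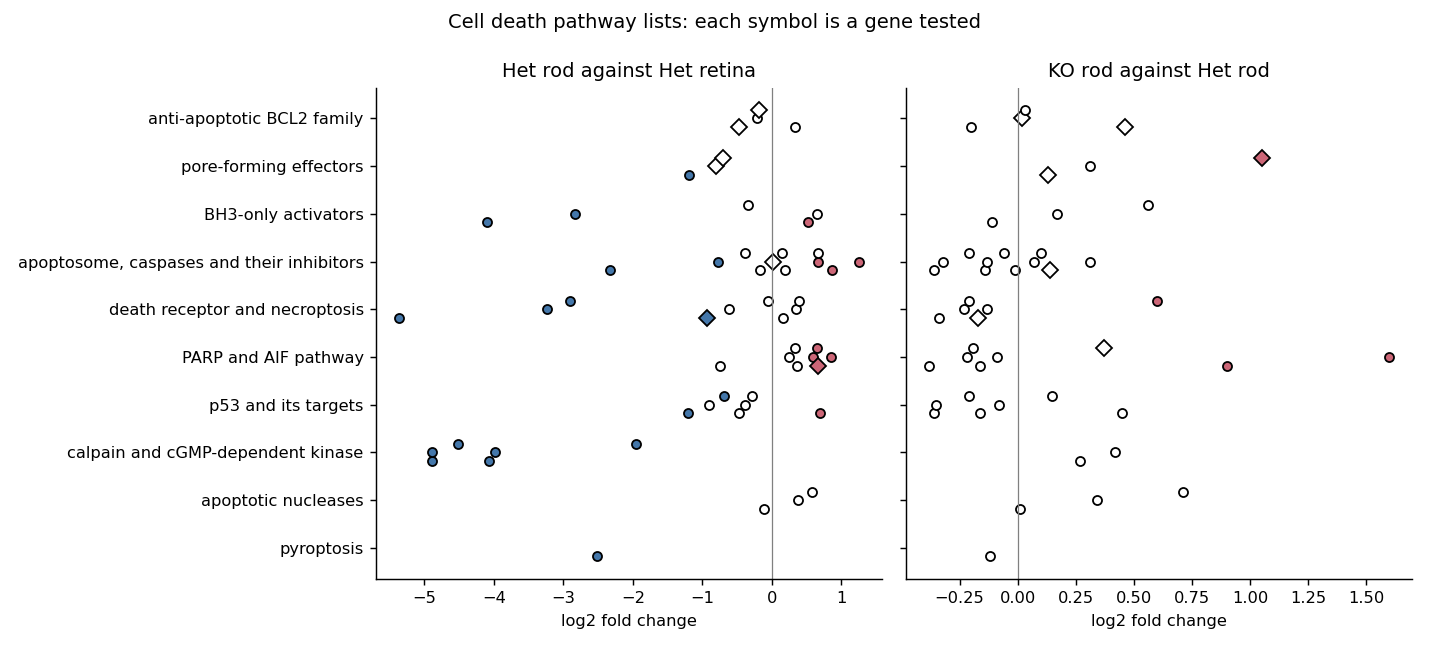
Log2 fold changes of the tested genes of the 10 cell death lists, Het rods against Het retina on the left and KO rods against Het rods on the right, on axes of different range. Diamonds are members, circles other genes, and filled symbols changed genes (red higher, blue lower). The 6 calpain and cGMP-dependent kinase genes lie on the lower side on the left, 5 of them kept through retina, and 4 filled symbols lie on the higher side on the right.

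As a description, each member was set against 59 genes of the lists over the 12 libraries, which share fraction, genotype and GC trend. The most alike by Pearson's r of log2 values were Sesn2 for Bax (0.95), Bax for Bcl2l1 (0.89), Bbc3 for Bak1 (0.77), Diablo for Bcl2 (0.69), Trp53 for Bbc3 (0.96), Endog for Casp9 (0.79), Prkg1 for Ripk1 (0.95) and Htra2 for Parp1 (0.94). Several members share their locus with other genes, and the strand of counting is not given in the sources used here. In the GENCODE annotation of GRCm38 Bax overlaps Gm45808 on its own strand, Bak1 overlaps Ggnbp1, Ripk1 overlaps Serpinb6a, and Casp9 overlaps Cela2a and Ctrc on the other strand, so their values may hold reads of those genes. Bcl2l1 and Bbc3 overlap no annotated gene.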

How the data were processed

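The authors deposited 1 table of 56748 genes and 12 libraries, made with SMART-Seq V4 from polyA RNA. The submitters' processing notes name CASAVA 1.8.2, HISAT2, DESeq2, edgeR and build GRCm39, without roles. Values are a signal, reads scaled by the authors with a factor per library and rounded; the scaling was inferred here from the low integers and is not stated. As these are not counts, a count model was not used. Groups and replicate numbers come from the labels. The 8 genes and the lists were chosen with earlier results of these data known.

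Here values were scaled by TMM, raised by a pseudocount of 2, log2-transformed and tested with limma 3.58.1 in R 4.3.3 (trend, robust), using only the groups compared. Genes needed a value of 10 in at least 3 libraries and a sum of 15. Single ratios were tested by exact permutation, whose smallest p with 3 against 3 is 0.1. Transcript GC content and length came from GENCODE M21 (GRCm38), matched by Ensembl identifier for 98.9% of genes in the KO rod comparison, and coordinates from RefSeq. The fits were tested on simulated data, with limits on recovery and false calls set only where no GC trend was added. The KO and Het rod libraries differ in that trend, so this check does not cover that difference. Alternatives were scaling, pseudocount, filter, GC trend, replicate block, prior removal of rod-depleted genes and leaving out each library.

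Deviations of Het rod and Het retina libraries with the same replicate number in their titles correlated at 0.47, 0.41 and 0.25. Those of the KO libraries correlated at 0.33, -0.01 and 0.18, which does not settle whether the numbers pair them. Across genotypes, which are different mice, the numbers were not taken as pairs. The main fits did not use the numbers. Besides the members and Ptpn11, up to 3 changed genes per list and comparison with the largest changes are named, and the gene most like each member. Cycs, Diablo, Capns1, Fas in Het mice, Ripk3 and Mlkl were named outside that rule, once their values had been seen. Some genes of the lists are counted in the list totals and not reported here by name. Python 3.11.15 with NumPy 2.4.6, pandas 2.3.3 and matplotlib 3.10.9 was also used.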

Additional observations from a re-analysis of the deposited data

How the results depend on the processing

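Precision was limited by 3 libraries per group and, for low genes such as Bbc3, by few reads. Numbers of changed genes without 1 library ran from 6480 to 8847 in Het rods against Het retina, 6537 to 9573 in KO rods against KO retina, 1067 to 1966 in KO against Het rods, and 0 to 1 in KO against Het retina and in the difference of KO effects. The KO against Het rod count was lowest without Het rod replicate 1 (1067) and KO rod replicate 2 (1186), the KO rod against retina count without KO retina replicate 1 (6537). The single calls came without Het retina replicate 1 or KO retina replicate 1, and without Het rod replicate 3. Members changed ran from 1 to 3, 2 to 2, 0 to 2, 0 to 0 and 0 to 0. With totals alone 5 members changed in each comparison of rods with retina. With the GC trend removed 453 genes and 0 members changed between KO and Het rods, and with the replicate block and the GC trend removed 506 and 0. The cause was not tested.

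The replicate block changed no other call of a member in Het rods against Het retina than that of Bax (-0.81). In KO mice the correlations did not settle whether the numbers pair the samples, and the block gave 9982 changed genes in KO rods against KO retina. It gave 1912 in KO against Het rods and 0 in KO against Het retina, which compare different mice.

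Signs turned as follows. With totals alone, Casp9 was at -0.43 in both comparisons of rods with retina, Bcl2l1 at -0.53 and Dffa at -0.02 in KO mice, Bcl2 at -0.09 in KO against Het rods, and the difference of KO effects at -0.02 for Bak1, -0.10 for Bcl2 and -0.08 for Bbc3. With median-ratio factors, Bcl2l1 was at -0.02 in KO rods against KO retina, Bcl2 at -0.01 in KO against Het rods, and the difference of KO effects at -0.07 for Bcl2 and -0.00 for Bbc3. With the GC trend removed, with or without the replicate block, Bax was at 0.21 and 0.32 in rods against retina of Het and KO mice and Bcl2l1 at -0.09 in KO mice. In the same setting Bak1 was at -0.32 and Ripk1 at 0.09 in KO against Het rods, Bak1 at -0.00 and Ripk1 at 0.02 in KO against Het retina, and the difference of KO effects at -0.25 for Bak1, -0.61 for Bbc3 and 0.10 for Ripk1.

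Leaving out 1 library turned the sign of small values. Ranges were -0.03 to 0.12 for Casp9 in Het rods against Het retina, and -0.28 to 0.38 for Bax, -0.29 to 0.02 for Bcl2 and -0.14 to 0.13 for Bcl2l1 in KO rods against KO retina. In KO against Het rods they were -0.23 to 0.35 for Bak1 and -0.07 to 0.06 for Bcl2. In KO against Het retina they were -0.14 to 0.81 for Bax, -0.23 to 0.26 for Bak1, -0.14 to 0.13 for Bcl2, -0.21 to 0.16 for Bcl2l1, -0.01 to 0.11 for Casp9, -0.23 to 0.21 for Ripk1 and -0.19 to 0.17 for Parp1. In the difference of KO effects they were -0.22 to 0.33 for Bak1, -0.15 to 0.12 for Bcl2, -0.41 to 0.39 for Bbc3, -0.01 to 0.16 for Casp9 and -0.43 to 0.02 for Ripk1.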
